A study of Mus musculus with 16 samples.

Results

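Genes of sterol and fatty acid synthesis were followed in cultured mouse islets, the endocrine cell clusters of the pancreas, made up mostly of beta cells that secrete insulin. The set holds 33 genes that encode enzymes of cholesterol and fatty acid synthesis or proteins that sense and carry sterols, chosen by gene symbol as targets or parts of the SREBP pathway. They are 33 of the 52636 genes in the table, and all 33 passed the filter on low counts, which left 18587 genes for the tests. Islets of male C57BL/6JRj mice aged 12 weeks (the strain is C57BL/6NRj in the study's methods) were kept for 10 days in medium with 2% human serum, and all conditions shared this medium. They were left without additions (control), or received 50 pg/mL of recombinant mouse IL-1β, a pro-inflammatory cytokine, 0.2 mM sodium butyrate, a fatty acid of gut bacteria, or both agents (combined). RNA sequencing gave 16 libraries, 4 for each condition, and every library pooled 500 islets of several mice. The replicates are therefore independent experiments, not single mice.

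Cells that run short of sterol release SREBP, a transcription factor made by *Srebf1* and *Srebf2*, from the endoplasmic reticulum, and SREBP then turns on the genes of cholesterol and fatty acid synthesis. When sterol is plentiful, the proteins of *Insig1* and *Insig2* hold SREBP back in the endoplasmic reticulum, and *Insig1* is itself a gene that SREBP turns on. Beta cells use acetyl-CoA and NADPH from the same steps to make lipids, and both of these have been linked to insulin secretion.

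The libraries held 18635943 to 25955943 counts. Libraries of a condition differed by more than counting error, with a chi-square per gene of 1.72 to 13.5 where counting error alone gives about 1. The beta cell markers *Ins1*, *Ins2*, *Iapp*, *Slc2a2*, *G6pc2*, *Mafa*, *Nkx6-1*, *Pdx1* and *Ucn3* made up 214585 to 237394 CPM in control islets. *Adipoq*, which defines adipocytes, a cell type rich in these enzymes, had at most 2 counts in any library. The unit CPM gives a gene's counts relative to the library total, scaled here by the trimmed mean of M values (TMM).

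The promoters show which known elements stand before these genes. RefSeq start sites with 250 bases before and 50 bases after them were matched by symbol for 26 of the 33 genes, with 34 start sites, in build GRCm38.p6, and 4 motifs were searched for on both strands. The sterol regulatory element TCACNCCAC, to which SREBP binds, was found in 1 of the 34 windows, that of *Hmgcs1*, and in 1.24% of all 32851 windows of the table. The E-box CACGTG was found in 14.7% of the 34 windows, for *Dhcr7*, *Elovl5*, *Hsd17b7*, *Insig1* and *Sc5d*, against 7.15% of all windows. The CCAAT box, bound by NF-Y, was in 67.6% of the 34 windows against 37.4% of all, and the GC box GGGCGG, bound by Sp1, in 70.6% against 35.7%. No motif is contained in another, a match is a description of letters, and a window without a match says nothing about binding.

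The 3 sequences printed here belong to *Hmgcs1*, with the sterol regulatory element, *Insig1*, with an E-box and lowered by each agent given alone, and *Mvk*, with 5 CCAAT boxes and lowered in each comparison of conditions. Each is the stretch before the gene, at chr13:119690101-119690350, plus strand, chr5:28071162-28071362, plus strand and chr5:114444019-114444268, plus strand. Capitals mark the sterol regulatory element, the E-box and the CCAAT box, which reads ATTGG on the other strand.
Hmgcs1: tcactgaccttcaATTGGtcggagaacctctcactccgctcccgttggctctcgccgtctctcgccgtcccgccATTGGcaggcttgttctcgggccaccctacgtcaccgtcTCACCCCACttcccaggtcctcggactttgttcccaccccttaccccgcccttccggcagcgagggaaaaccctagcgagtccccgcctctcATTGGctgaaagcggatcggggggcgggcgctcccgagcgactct
Insig1: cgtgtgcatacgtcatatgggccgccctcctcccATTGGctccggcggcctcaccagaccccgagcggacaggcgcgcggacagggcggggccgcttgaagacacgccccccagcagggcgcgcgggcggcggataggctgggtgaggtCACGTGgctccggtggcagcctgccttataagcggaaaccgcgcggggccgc
Mvk: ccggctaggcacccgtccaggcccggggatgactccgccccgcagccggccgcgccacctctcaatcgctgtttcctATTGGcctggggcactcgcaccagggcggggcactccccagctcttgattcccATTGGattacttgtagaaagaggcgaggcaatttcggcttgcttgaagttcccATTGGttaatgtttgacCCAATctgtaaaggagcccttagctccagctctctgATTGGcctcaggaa
In the first sequence the sterol regulatory element begins at -137, and in the second the E-box begins at -101, counted in bases from the RefSeq start site.

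Levels between genes were compared as CPM per kilobase of exon in control islets. The length is that of all annotated exons of a gene together, so the order also depends on the annotation. For *Fdps*, 26.7% of these bases are shared with *Gm43738*. *Acly*, whose enzyme ATP citrate lyase makes cytosolic acetyl-CoA from citrate, was by far the most abundant, at 391 ± 18.9 CPM per kilobase (SD, n = 4). *Insig1* was next at 44.6 ± 2.30, and its 4 libraries lay above those of *Elovl5* (40.0 ± 1.36) but overlapped those of *Sqle* (39.5 ± 2.28). *Elovl5* overlapped *Sqle*, and *Sqle* overlapped *Scd2* (35.2 ± 2.57). *Srebf1* stood at 28.5 ± 2.83 and *Srebf2* at 24.3 ± 2.36, with overlapping libraries. The lowest levels were those of *Idi1* (2.07 ± 0.463), *Scd1* (1.93 ± 0.355), *Acaca* (1.72 ± 0.0710) and *Fdps* (1.57 ± 0.147). Of the 32 pairs of neighbours in this order, 25 overlapped in range and did not differ beyond their spread.

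**Figure D1:**
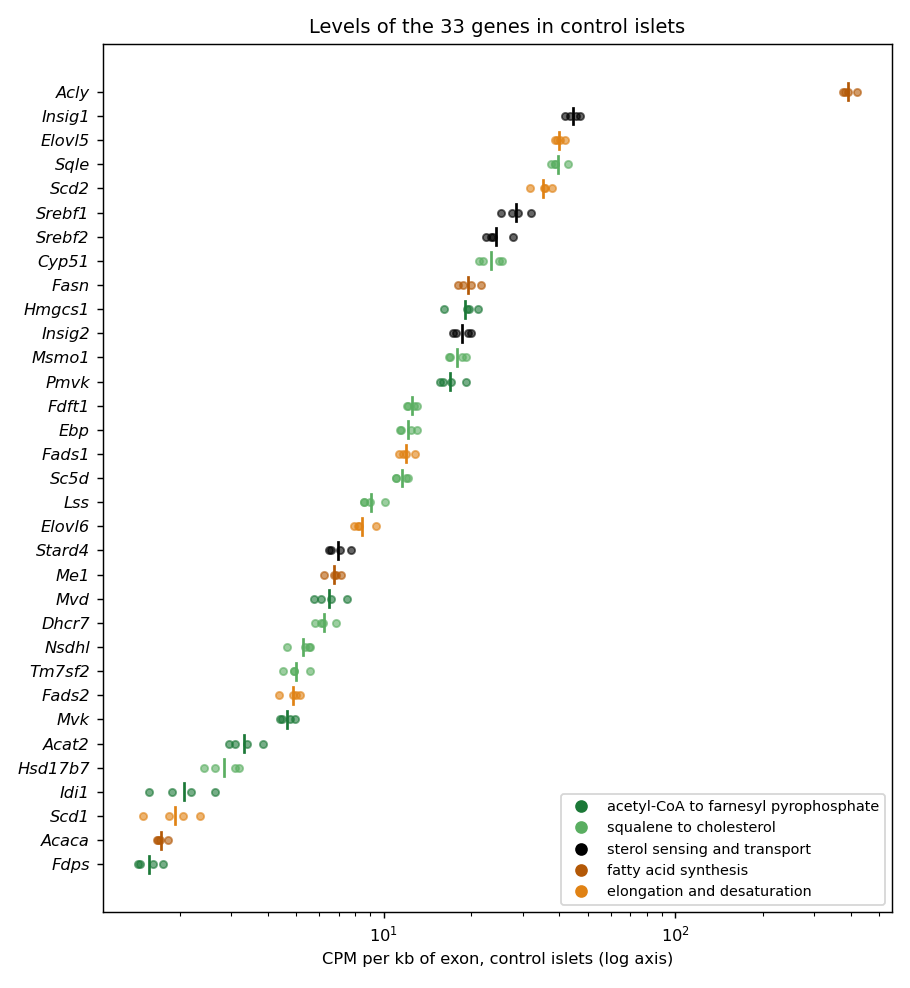
Level of each of the 33 genes in control islets, as CPM per kilobase of exon on a log axis, with a point for each of the 4 libraries and a bar at their mean, coloured by role. *Acly* stands alone at 391, and the other genes span from 1.57 to 44.6.

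Each comparison was tested with edgeR's quasi-likelihood test over all 18587 genes, with calls made where the adjusted p (Benjamini-Hochberg) was under 0.01, and differences are log2 fold changes ± SE. IL-1β lowered 4 of the 33 genes (*Insig1*, *Scd2*, *Mvk* and *Fads1*), or 12.1%, where 6.59% of all genes tested were lowered. It raised 2 (*Me1* and *Insig2*), or 6.06%, where 11.2% of all genes were raised. The median log2 fold change was -0.13 over the 33 genes and -0.03 over all genes. With upper-quartile scaling the split was 2 raised and 7 lowered. Over all 18587 genes that scaling gave 1914 raised and 1800 lowered, against 2087 and 1224 with TMM.

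Butyrate alone lowered 10 of the 33 genes (*Acly*, *Dhcr7*, *Ebp*, *Fads2*, *Fasn*, *Idi1*, *Insig1*, *Me1*, *Mvk* and *Nsdhl*), or 30.3%, where 11.4% of all genes were lowered. It raised 3 (*Insig2*, *Srebf2* and *Elovl5*), or 9.09%, where 8.53% of all genes were raised. The median was -0.13 over the set and 0.01 over all genes. With upper-quartile scaling 4 were raised and 8 lowered. All 18587 genes then gave 2207 raised and 1566 lowered, against 1585 and 2112 with TMM.

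Butyrate added to IL-1β, against IL-1β alone, lowered 7 genes (*Acly*, *Ebp*, *Fads2*, *Me1*, *Mvk*, *Nsdhl* and *Pmvk*) where 11.1% of all genes were lowered, and raised 4 (*Elovl5*, *Msmo1*, *Scd2* and *Srebf2*) where 8.41% were raised. The median was -0.05 against 0.01 over all genes. Without IL-1β replicate 2 the raised genes of the set numbered 2, where 1365 of all 19017 genes then tested were raised. The comparisons of butyrate with and without IL-1β share no libraries. Of the 10 genes lowered by butyrate alone and the 7 lowered by butyrate added to IL-1β, 6 were in both lists (*Acly*, *Ebp*, *Fads2*, *Me1*, *Mvk* and *Nsdhl*). Of the 3 and 4 raised, 2 were in both (*Elovl5* and *Srebf2*). No overlap over all genes is given beside these counts, so they do not show a trait particular to this set.

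With both agents against control, 11 genes were lowered (*Dhcr7*, *Ebp*, *Fads1*, *Fads2*, *Fasn*, *Idi1*, *Insig1*, *Lss*, *Mvk*, *Nsdhl* and *Tm7sf2*) where 14.8% of all genes were lowered, and 2 were raised (*Elovl5* and *Insig2*) where 15.8% were raised. The median was -0.12 over the set and 0.00 over all genes. With library size alone as the scaling, 5 were raised and 9 lowered. Over all 18587 genes 3805 were then raised and 1884 lowered, against 2937 and 2751 with TMM. This comparison shares its libraries with the other 3, so its counts are not independent of theirs.

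The butyrate effect with IL-1β was also tested against the butyrate effect without it, where 0.0968% of all genes were called in either direction. None of the 33 genes was called by the main edgeR model or by DESeq2, and 5 had an unadjusted p under 0.05 in edgeR. Without the filter on low counts, or with the replicate number as a block, edgeR called 2 of them, *Insig1* and *Scd2*. Over all 42076 genes without the filter, 52 were called with a positive and 43 with a negative difference. With the block these counts were 60 and 72, over 18587 genes. In all, 19 of the 33 genes were called in at least 1 comparison and 14 in none. The changes were small, since 4 genes were called at 1.5-fold or more and 0 at 2-fold or more. Shares of all genes are not given for these counts, which therefore do not set the 33 apart from other genes.

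**Figure D2:**
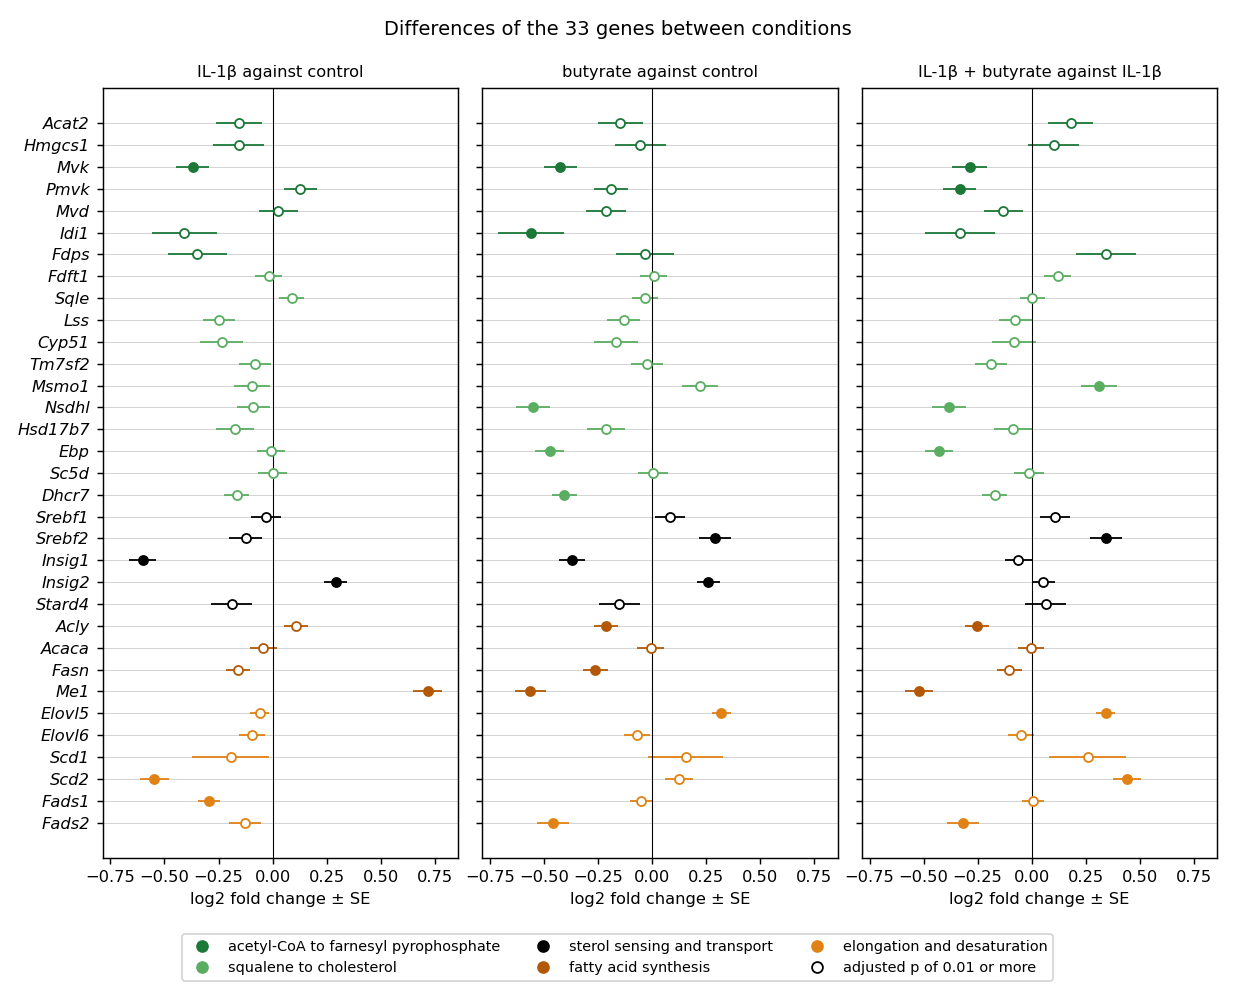
Log2 fold change ± SE of each of the 33 genes in 3 comparisons, with filled points for an adjusted p under 0.01 and open points for 0.01 or more. The points lie between -0.60 (*Insig1*, IL-1β) and 0.72 (*Me1*, IL-1β), and *Nsdhl* and *Ebp* lie left of 0 in both butyrate panels and close to 0 in the IL-1β panel.

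Among the genes that sense sterols, *Insig1* fell and *Insig2* rose with each agent given alone. *Insig1* (ENSMUSG00000045294, chr5:28071363-28078662, plus strand) had 146, 135, 141 and 129.5 CPM in the 4 control libraries, 98.0, 92.4, 91.3 and 82.4 with IL-1β, 115, 105, 110.1 and 97.5 with butyrate and 95.8, 90.6, 82.7 and 79.1 with both. All libraries with an addition lay below all control libraries, and those with both agents overlapped those with IL-1β alone. The log2 fold change was -0.60 ± 0.06 (adjusted p = 2.5e-08) with IL-1β, -0.37 ± 0.06 (adjusted p = 4.4e-05) with butyrate and -0.66 ± 0.06 (adjusted p = 2.6e-09) with both. Butyrate added to IL-1β gave a further difference of -0.06 ± 0.06 (adjusted p = 0.50). Its effect with IL-1β minus that without was 0.31 ± 0.09 (adjusted p = 0.20), which did not pass the threshold in the main model over all libraries. *Insig1* passed it in edgeR when no filter on low counts was used (adjusted p = 0.0069) and with the replicate number as a block (adjusted p = 0.0010).

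*Insig2* (ENSMUSG00000003721, chr1:121304353-121332589, minus strand) encodes the second protein of the pair. It had 67.8, 69.1, 61.2 and 60.2 CPM in control islets, 81.2, 82.9, 79.9 and 72.8 with IL-1β, 81.8, 77.9, 75.1 and 74.8 with butyrate and 81.1, 84.5, 84.4 and 78.3 with both. Every library with an addition was above every control library. Its log2 fold change was 0.29 ± 0.05 (adjusted p = 9.8e-05) with IL-1β, 0.26 ± 0.05 (adjusted p = 0.00039) with butyrate and 0.35 ± 0.05 (adjusted p = 5.1e-06) with both. In control islets the mean CPM of *Insig1* was 138 ± 7.12 and that of *Insig2* 64.6 ± 4.52 (SD, n = 4), and with both agents they were 87.0 ± 7.54 and 82.1 ± 2.97, on a scale that is not corrected for length.

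*Srebf2* (ENSMUSG00000022463, chr15:82147181-82205379, plus strand) makes SREBP2, the form that mainly drives cholesterol synthesis. Its CPM were 199, 168, 169.7 and 161 in control islets, 176, 152, 155 and 157 with IL-1β, 231, 226, 195 and 199.8 with butyrate and 229, 190.0, 200.2 and 192 with both. Butyrate libraries were higher than IL-1β libraries without overlap, while a control library of 199 CPM lay inside the range of the butyrate libraries. *Srebf2* rose with butyrate alone by 0.29 ± 0.07 (adjusted p = 0.0052), and with butyrate added to IL-1β by 0.34 ± 0.07 (adjusted p = 0.0014). The first call was lost when control replicate 2, 3 or 4 or butyrate replicate 1 or 2 was left out (log2 fold change 0.25 to 0.27, adjusted p 0.019 to 0.023), and the second without IL-1β replicate 2 (0.32, adjusted p = 0.010).

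*Srebf1* (ENSMUSG00000020538, chr11:60199089-60222581, minus strand) makes the SREBP1 proteins, which favour fatty acid synthesis. It had 181, 163, 155 and 143 CPM in control islets, 186, 152, 144 and 147 with IL-1β, 177, 168, 169 and 164 with butyrate and 179, 165, 168 and 165 with both, and all 4 conditions overlapped. Its log2 fold changes were -0.03 ± 0.07 (adjusted p = 0.80) for IL-1β, 0.08 ± 0.07 (adjusted p = 0.43) for butyrate and 0.11 ± 0.07 (adjusted p = 0.28) for butyrate added to IL-1β. *Stard4*, which carries cholesterol between membranes, was at 39.0 ± 3.12 CPM in control islets, 34.3 ± 3.17 with IL-1β, 35.1 ± 4.47 with butyrate and 35.7 ± 4.14 with both, and was not called in any comparison.

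**Figure D3:**
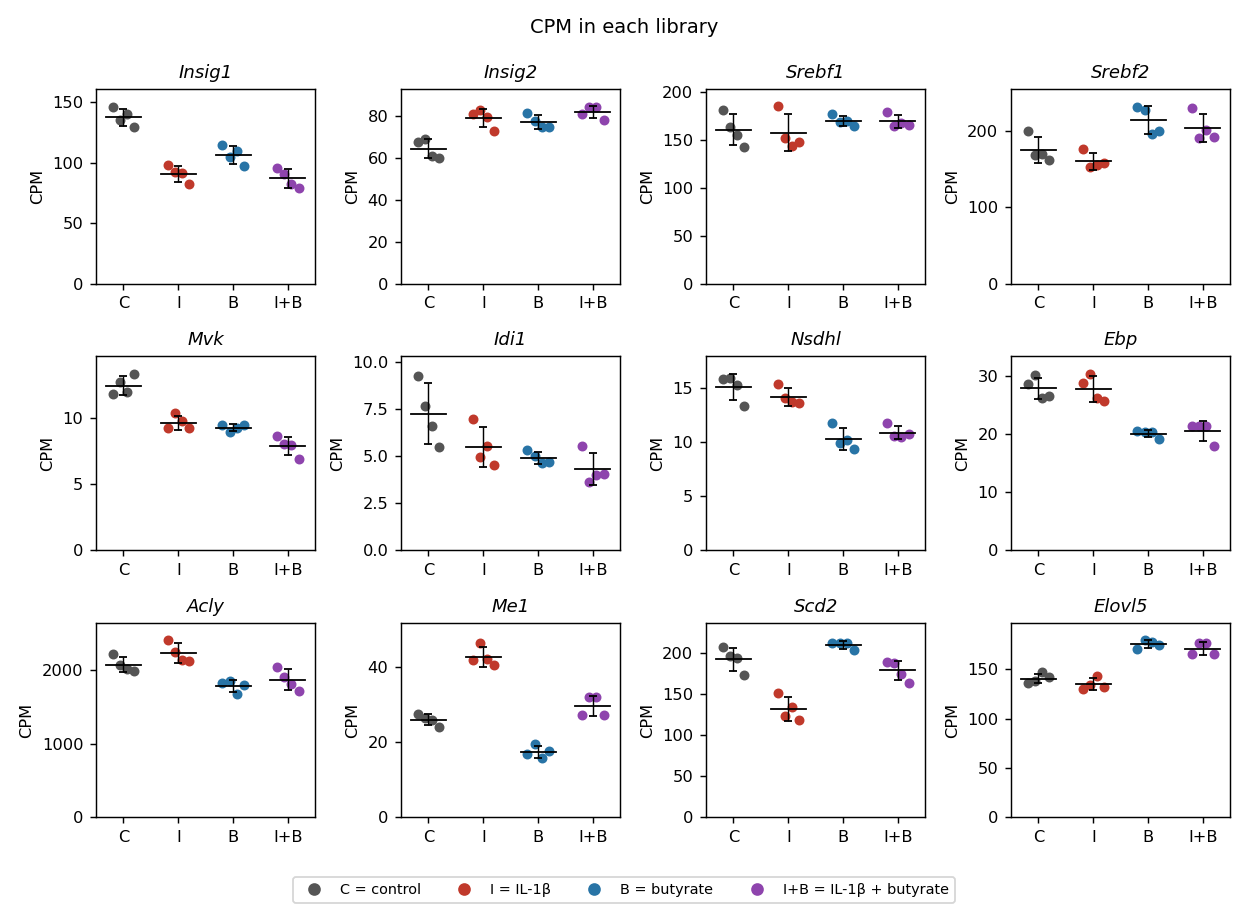
CPM of 12 of the genes in each library (points, left to right as replicates 1 to 4), with mean and SD (bars), for control (C), IL-1β (I), butyrate (B) and both (I+B). *Insig1* is lower than control in the 12 libraries with an addition, *Me1* is highest with IL-1β and lowest with butyrate, and the 4 conditions of *Srebf1* overlap.

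The steps from acetyl-CoA to farnesyl pyrophosphate, the mevalonate pathway, are covered by 7 genes. None of the 7 was raised in any comparison, 1 was lowered by IL-1β, 2 by butyrate alone, 2 by butyrate added to IL-1β and 2 by both agents against control. Of all genes, 6.59%, 11.4%, 11.1% and 14.8% were lowered in these comparisons, so that 1 of 7 with IL-1β is near that share. The shares raised were 11.2%, 8.53%, 8.41% and 15.8%, so that none raised of 7 is not far from them. At an unadjusted p under 0.05, edgeR had 1 of them higher, with butyrate added to IL-1β, and DESeq2 called none raised. The list's median was -0.16 for IL-1β, -0.19 for butyrate and -0.13 for butyrate added to IL-1β. *Mvk* (ENSMUSG00000041939, chr5:114444269-114460591, plus strand), the kinase that phosphorylates mevalonate, fell in each of these comparisons. Its CPM were 11.8, 12.8, 12.0 and 13.3 in control islets, 9.25, 10.4, 9.80 and 9.27 with IL-1β, 9.49, 8.93, 9.25 and 9.51 with butyrate and 8.65, 8.02, 7.97 and 6.93 with both. The libraries with both agents lay below those with either agent, which in turn lay below control. Differences on the log2 scale were -0.37 ± 0.08 (adjusted p = 0.00052) for IL-1β, -0.43 ± 0.08 (adjusted p = 0.00011) for butyrate and -0.66 ± 0.08 (adjusted p = 1.1e-07) for both against control. For butyrate added to IL-1β the difference was -0.29 ± 0.08 (adjusted p = 0.0075), a call lost when IL-1β replicate 2 or 3 or combined replicate 2, 3 or 4 was left out (-0.31 to -0.25, adjusted p 0.011 to 0.029) and in 5 of the 8 other alternatives.

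*Pmvk* (ENSMUSG00000027952, chr3:89454541-89469013, plus strand) encodes the kinase of the following step. It had 32.9, 29.1, 27.3 and 26.6 CPM in control islets, 36.1, 31.7, 31.0 and 28.2 with IL-1β, 28.6, 25.98, 24.8 and 22.2 with butyrate and 25.99, 25.2, 24.9 and 24.4 with both. The combined libraries were below all IL-1β libraries, at -0.33 ± 0.08 (adjusted p = 0.0016), while the difference between butyrate and control was -0.19 ± 0.08 (adjusted p = 0.065).

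*Idi1* (ENSMUSG00000058258, chr13:8885501-8892451, plus strand) encodes the isomerase that makes the second building block of isoprenoids. Control libraries had 9.29, 7.67, 6.59 and 5.48 CPM, IL-1β libraries 6.98, 4.97, 5.55 and 4.55, butyrate libraries 5.32, 5.02, 4.65 and 4.69 and combined libraries 5.56, 3.65, 4.03 and 4.04. The control libraries were widely spread, and the lowest of them lay inside the range of the IL-1β and the combined libraries. On the log2 scale the change was -0.56 ± 0.15 (adjusted p = 0.0072) for butyrate and -0.74 ± 0.15 (adjusted p = 0.00039) for both against control. The call for butyrate alone was lost when control replicate 1 or 2 or any single butyrate library was left out (-0.60 to -0.42, adjusted p 0.012 to 0.034). Its exons share 9.22% of their bases with *Gm48574* on the other strand, and the strand setting of the counting is not given in the sources used here.

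The other 4 genes of the pathway were not called. *Hmgcs1*, which makes HMG-CoA and carries the sterol regulatory element printed above, was at 87.4 ± 9.63 CPM in control islets, 78.6 ± 10.6 with IL-1β, 84.2 ± 9.23 with butyrate and 84.1 ± 10.6 with both. Its libraries overlapped in all 4 conditions. *Acat2*, which joins acetyl-CoA units, had log2 fold changes of -0.15 ± 0.11 (adjusted p = 0.31) and -0.15 ± 0.11 (adjusted p = 0.33), and *Mvd*, which forms isopentenyl pyrophosphate, of 0.03 ± 0.09 (adjusted p = 0.86) and -0.22 ± 0.09 (adjusted p = 0.082), for IL-1β and butyrate. For *Fdps*, the farnesyl pyrophosphate synthase, they were -0.35 ± 0.14 (adjusted p = 0.065) and -0.03 ± 0.13 (adjusted p = 0.89). *Fdps* shares 26.7% of its exon bases with *Gm43738* on the same strand, so reads of both cannot be told apart there. *Hmgcs1* shares 12.1% with *Gm48342* on the other strand.

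From squalene to cholesterol there were 11 genes, and edgeR called none of them with IL-1β alone, where 3 were lower at an unadjusted p under 0.05 and DESeq2 called 1 as lowered. Butyrate alone lowered 3, butyrate added to IL-1β lowered 2 and raised 1, and both agents against control lowered 5. Of all genes, 6.59% were lowered by IL-1β, 11.4% by butyrate alone, 11.1% by butyrate added to IL-1β and 14.8% by both agents. Butyrate added to IL-1β raised 8.41% of all genes, so that its counts of 2 and 1 among 11 are near those shares. The list's median was -0.09 for IL-1β, -0.13 for butyrate and -0.08 for butyrate added to IL-1β. *Nsdhl* (ENSMUSG00000031349, chrX:72918557-72958514, plus strand), a dehydrogenase of the steps that strip methyl groups from the sterol ring, had 15.8, 15.9, 15.3 and 13.3 CPM in control islets and 15.4, 14.1, 13.7 and 13.6 with IL-1β. It had 11.8, 9.95, 10.2 and 9.38 CPM with butyrate and 11.7, 10.5, 10.4 and 10.7 with both. The 8 libraries with butyrate were all below the 8 without it. As log2 fold changes the tests gave -0.55 ± 0.08 (adjusted p = 5.4e-06) for butyrate alone and -0.38 ± 0.08 (adjusted p = 0.00049) for butyrate added to IL-1β, against -0.09 ± 0.08 (adjusted p = 0.43) for IL-1β.

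*Ebp* (ENSMUSG00000031168, chrX:8185329-8193512, minus strand), the sterol isomerase of a later step, followed the same arrangement. Its CPM were 28.7, 30.1, 26.3 and 26.5 in control islets, 28.9, 30.4, 26.2 and 25.8 with IL-1β, 20.5, 20.4, 20.3 and 19.3 with butyrate and 21.5, 21.4, 21.5 and 18.01 with both. No library with butyrate reached the lowest library without it. The difference was -0.47 ± 0.07 (adjusted p = 4.3e-06) for butyrate alone, -0.43 ± 0.07 (adjusted p = 1.6e-05) with IL-1β present and -0.01 ± 0.06 (adjusted p = 0.95) for IL-1β itself.

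*Dhcr7* (ENSMUSG00000058454, chr7:143823145-143848410, plus strand) encodes the reductase of the last step to cholesterol. Its CPM were 39.8, 35.9, 35.4 and 33.7 in control islets, 31.8, 33.8, 31.6 and 31.9 with IL-1β, 28.5, 26.6, 27.5 and 26.7 with butyrate and 31.5, 26.7, 27.3 and 29.1 with both. Butyrate libraries lay below control and IL-1β libraries without overlap. The fitted change in log2 was -0.41 ± 0.06 (adjusted p = 5.2e-06) for butyrate and -0.34 ± 0.06 (adjusted p = 2.8e-05) for both against control, while butyrate added to IL-1β gave -0.17 ± 0.06 (adjusted p = 0.026).

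*Msmo1* (ENSMUSG00000031604, chr8:64718139-64733792, minus strand), a monooxygenase that acts on the same methyl groups as *Nsdhl*, went the other way. It had 117, 114, 104 and 103 CPM in control islets, 113, 108, 101 and 89.0 with IL-1β, 142, 130.4, 128 and 112 with butyrate and 141, 135, 118 and 115 with both. The combined libraries were above the IL-1β libraries, at 0.31 ± 0.08 (adjusted p = 0.0084), and butyrate against control gave 0.22 ± 0.08 (adjusted p = 0.052). The first call was lost without control replicate 2, IL-1β replicate 2, 3 or 4, combined replicate 1 or 2, or butyrate replicate 2 or 3 (0.23 to 0.33, adjusted p 0.012 to 0.037).

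*Lss* (ENSMUSG00000033105, chr10:76531588-76557138, plus strand), which closes the sterol ring, had 109, 92.7, 97.0 and 92.0 CPM in control islets, 94.3, 75.1, 84.2 and 76.1 with IL-1β, 94.9, 90.3, 86.6 and 84.8 with butyrate and 89.7, 76.6, 73.0 and 72.7 with both. It was called with both agents against control, at -0.32 ± 0.08 (adjusted p = 0.0017), where the libraries did not overlap, and was -0.25 ± 0.08 (adjusted p = 0.019) for IL-1β and -0.13 ± 0.08 (adjusted p = 0.21) for butyrate. *Tm7sf2* (ENSMUSG00000024799, chr19:6062821-6068373, minus strand), a sterol reductase, had 24.6, 21.7, 21.6 and 19.8 CPM in control islets, 22.4, 20.7, 20.9 and 19.1 with IL-1β, 24.7, 21.5, 19.4 and 20.8 with butyrate and 19.7, 17.3, 17.6 and 18.1 with both. With both agents against control it was -0.27 ± 0.07 (adjusted p = 0.0044), lost without control replicate 1 or combined replicate 2 or 3 (-0.26 to -0.21, adjusted p 0.013 to 0.029) and with library size alone. *Tm7sf2* shares 12.1% of its exon bases with *Vps51* on the same strand.

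Those not called were *Fdft1*, *Sqle*, *Cyp51*, *Hsd17b7* and *Sc5d*. *Sqle*, the squalene epoxidase and the most abundant sterol enzyme per length, was at 219 ± 12.6 CPM in control islets, 233 ± 21.6 with IL-1β, 214 ± 9.72 with butyrate and 233 ± 15.8 with both. *Sc5d*, a desaturase of the sterol ring, lay between -0.01 and 0.00 on the log2 scale in the pairwise comparisons, with 0.00 ± 0.07 (adjusted p = 1.0) for IL-1β and 0.00 ± 0.07 (adjusted p = 0.98) for butyrate. *Fdft1*, the squalene synthase, gave -0.02 ± 0.06 (adjusted p = 0.87) and 0.01 ± 0.06 (adjusted p = 0.96), and shares 18.3% of its exon bases with *Ctsb* on the other strand. *Cyp51*, the lanosterol demethylase, gave -0.24 ± 0.10 (adjusted p = 0.10) for IL-1β and -0.32 ± 0.10 (adjusted p = 0.018) for both agents against control. *Hsd17b7*, a reductase that works with *Nsdhl*, gave -0.21 ± 0.09 (adjusted p = 0.069) for butyrate and -0.26 ± 0.09 (adjusted p = 0.018) for both agents against control.

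The 4 genes that feed and build fatty acids include *Me1*, which the agents moved in opposite directions. *Me1* (ENSMUSG00000032418, chr9:86581371-86695953, minus strand), the cytosolic malic enzyme that makes NADPH, had 27.5, 26.5, 25.99 and 24.0 CPM in control islets, 41.8, 46.4, 42.1 and 40.5 with IL-1β, 16.8, 19.6, 15.9 and 17.8 with butyrate and 27.3, 32.1, 32.1 and 27.4 with both. IL-1β libraries were above all others and butyrate libraries below all others, while the combined libraries overlapped control. The log2 fold change was 0.72 ± 0.07 (adjusted p = 2.5e-09) for IL-1β, -0.56 ± 0.07 (adjusted p = 9.9e-07) for butyrate, -0.52 ± 0.07 (adjusted p = 7.9e-07) for butyrate added to IL-1β and 0.19 ± 0.07 (adjusted p = 0.023) for both against control. The difference between the butyrate effects was 0.04 ± 0.10 (adjusted p = 0.98).

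*Acly* (ENSMUSG00000020917, chr11:100476353-100528000, minus strand), the most abundant gene of the set, had 2208, 2060.2, 2014 and 1983 CPM in control islets, 2404, 2242, 2133 and 2124 with IL-1β, 1824, 1844, 1669 and 1786 with butyrate and 2042, 1901, 1808 and 1713 with both. Butyrate libraries were below control, and combined libraries below IL-1β, without overlap. Its log2 fold change was -0.21 ± 0.06 (adjusted p = 0.0041) for butyrate alone and -0.25 ± 0.06 (adjusted p = 0.00091) for butyrate added to IL-1β, with 0.11 ± 0.06 (adjusted p = 0.17) for IL-1β. The call for butyrate alone was lost without control replicate 1 or 2 or butyrate replicate 3 or 4 (-0.22 to -0.18, adjusted p 0.010 to 0.022) and with upper-quartile scaling.

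*Fasn* (ENSMUSG00000025153, chr11:120805846-120824547, minus strand), the fatty acid synthase, had 235, 205, 218 and 197 CPM in control islets, 207, 177, 189 and 193 with IL-1β, 184, 181, 164 and 183 with butyrate and 189.6, 169, 179.6 and 174 with both. Libraries with butyrate, alone or combined, were below all control libraries. The difference was -0.26 ± 0.06 (adjusted p = 0.00074) for butyrate and -0.26 ± 0.06 (adjusted p = 0.00042) for both agents against control, the second not called with library size alone as the scaling (adjusted p = 0.013), and -0.16 ± 0.06 (adjusted p = 0.036) for IL-1β. *Acaca*, whose enzyme makes malonyl-CoA for *Fasn*, was at 29.4 ± 1.21 CPM in control islets, 28.5 ± 2.90 with IL-1β, 29.3 ± 0.292 with butyrate and 28.5 ± 1.31 with both, and was not called.

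Elongases and desaturases, which lengthen fatty acids and place double bonds in them, make up the last 6 genes. *Scd2* (ENSMUSG00000025203, chr19:44293674-44306864, plus strand), a stearoyl-CoA desaturase, had 207, 196, 193 and 173 CPM in control islets, 152, 123, 135 and 118 with IL-1β, 211, 212, 213 and 203 with butyrate and 189, 188, 175 and 164 with both. IL-1β libraries were below all others, and the combined libraries overlapped control. Differences on the log2 scale were -0.55 ± 0.07 (adjusted p = 4.9e-07) for IL-1β and 0.44 ± 0.07 (adjusted p = 1.4e-05) for butyrate added to IL-1β, against 0.12 ± 0.06 (adjusted p = 0.16) for butyrate alone and -0.11 ± 0.06 (adjusted p = 0.21) for both against control. The difference between the butyrate effects was 0.32 ± 0.09 (adjusted p = 0.23). *Scd2* passed the threshold in edgeR when no filter on low counts was used (adjusted p = 0.0027) and with the replicate number as a block (adjusted p = 0.0024). *Scd2* and *Me1* were the genes called in opposite directions by IL-1β and then by butyrate added to it, and *Mvk* the one called in the same direction. Both of these comparisons use the IL-1β libraries, so they are not independent.

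*Scd1*, the related desaturase, had 11.4, 8.96, 10.0 and 7.32 CPM in control islets and 10.3, 7.84, 7.62 and 7.29 with IL-1β, with a log2 fold change of -0.19 ± 0.18 (adjusted p = 0.48). Whether reads were shared between *Scd1* and *Scd2* was not tested. *Fads1* (ENSMUSG00000010663, chr19:10182888-10196877, plus strand), which acts late in the making of polyunsaturated fatty acids, had 61.7, 54.3, 57.5 and 56.0 CPM in control islets, 48.8, 46.8, 44.3 and 47.1 with IL-1β, 57.9, 56.5, 53.9 and 53.2 with butyrate and 50.4, 45.9, 46.5 and 45.0 with both. Libraries with IL-1β, alone or combined, lay below all those without it. Its log2 fold change was -0.30 ± 0.05 (adjusted p = 4.9e-05) with IL-1β and -0.05 ± 0.05 (adjusted p = 0.49) with butyrate.

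*Fads2* (ENSMUSG00000024665, chr19:10062765-10101746, minus strand), which acts early in the same series, showed the reverse arrangement. It had 17.1, 16.1, 16.5 and 14.5 CPM in control islets, 15.5, 14.995, 14.4 and 13.9 with IL-1β, 12.3, 11.9, 11.5 and 11.01 with butyrate and 13.3, 11.1, 11.8 and 10.7 with both. Libraries with butyrate lay below all those without it. On the log2 scale the change was -0.46 ± 0.07 (adjusted p = 2.9e-05) for butyrate and -0.32 ± 0.08 (adjusted p = 0.0018) for butyrate added to IL-1β, against -0.13 ± 0.07 (adjusted p = 0.21) for IL-1β.

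*Elovl5* (ENSMUSG00000032349, chr9:77917364-77984519, plus strand), an elongase of polyunsaturated fatty acids, rose with butyrate. It had 136, 138, 147 and 142 CPM in control islets, 130.1, 134, 143 and 133 with IL-1β, 171, 180.1, 177 and 175 with butyrate and 166, 177, 176 and 165 with both. All 8 libraries with butyrate were above the 8 without it, and the log2 fold change was 0.32 ± 0.04 (adjusted p = 2.7e-06) for butyrate alone, 0.34 ± 0.04 (adjusted p = 1.1e-06) for butyrate added to IL-1β and -0.06 ± 0.04 (adjusted p = 0.36) for IL-1β. *Elovl6*, which elongates palmitate, was at 54.2 ± 4.18 CPM in control islets and between 49.0 and 51.6 in the means of the other conditions, and was not called.

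Within conditions, most of these genes deviated together. For each gene, the deviation of log2 CPM from its condition mean was correlated with the mean deviation of the other sterol enzymes over the 16 libraries. Genes of 1 library share its culture, depth and RNA preparation, so the values are a description. Pearson's r had a median of 0.81 over the 18 sterol enzymes (0.17 for *Mvk* to 0.95 for *Hmgcs1*) and of 0.78 over the other 15 genes (-0.45 for *Elovl5* to 0.90 for *Insig1*). Over the 10535 genes tested at or above the lowest level in the set, the median was 0.21, and 0.75 was the 95th percentile. *Fads2* (0.87), *Stard4* (0.86) and *Acly* (0.85) were among those high in r, and *Mvk*, *Me1* (0.06), *Acaca* (0.21) and *Elovl5* were the low ones. The mean deviation of the 18 enzymes ran from -0.13 to 0.18 over the libraries and was highest in the library numbered 1 in each of the 4 conditions (0.12 to 0.18). In control, IL-1β and butyrate libraries this mean fell in the order of the numbers 1 to 4. The labels do not say that a number marks a shared batch or day. The paper describes 4 independent experiments and compared insulin secretion from islets in pairs. Sample numbers in the library names run through the 4 conditions of a replicate before the next replicate. A number may thus mark an experiment, but this is not stated, and the main model did not use the numbers. The cause of the spread of the mean deviation was not tested. With the number as a block in the model, more genes of the set were lowered in each pairwise comparison, as more were over all genes. The counts with this block stand in the last section. The SD of log2 CPM within conditions had a median of 0.11 over the set and of 0.09 over the same 10535 genes. Those genes were not matched to the set in level beyond that lower limit.

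**Figure D4:**
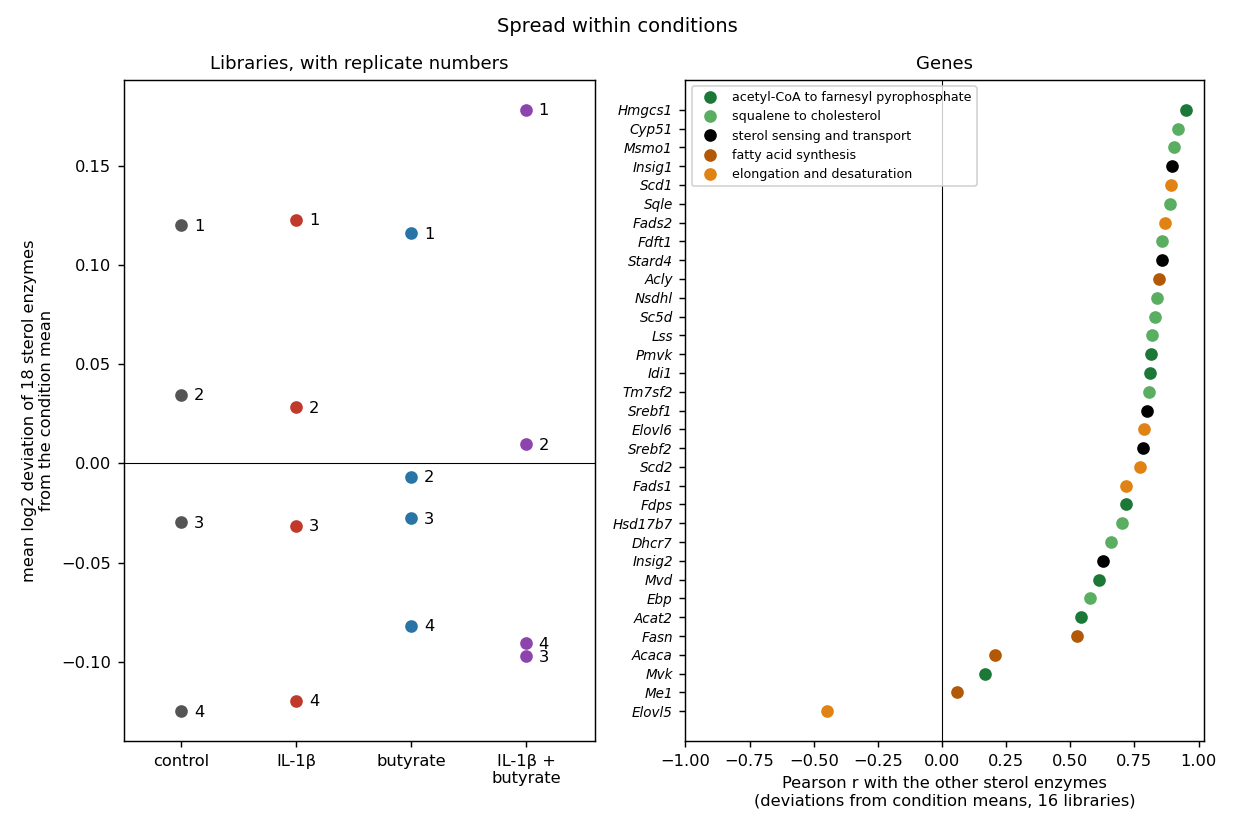
Left, mean log2 deviation of the 18 sterol enzymes from their condition mean in each library, labelled with the replicate number. Right, Pearson's r of each gene's deviations with those of the other sterol enzymes over 16 libraries. Library 1 is the highest in each condition, and r lies above 0.5 for all but *Acaca*, *Mvk*, *Me1* and *Elovl5*.

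Other genes of lipid metabolism, 55 in 4 lists, were compared beside the set, and 53 of them were tested (*Elovl3* and *Fads3* had too few counts). Of 7 genes that process SREBP or degrade its regulators, none was called by edgeR or DESeq2 with a single agent or for butyrate added to IL-1β. Of all genes, 11.2% were raised and 6.59% lowered by IL-1β, and 8.53% and 11.4% by butyrate alone. For butyrate added to IL-1β the shares were 8.41% and 11.1%, so that none of 7 is not far from them. At an unadjusted p under 0.05 in edgeR, 0, 1 and 3 of the 7 passed for IL-1β, butyrate and butyrate added to IL-1β. Over all 18587 genes, 6675, 7175 and 7409 did. With upper-quartile scaling or library size alone, 1 of the 7 was raised by butyrate added to IL-1β, where 2137 and 1580 of all genes were raised. Of 10 genes of sterol export and storage, IL-1β raised 5 and lowered 1, where 11.2% of all genes were raised and 6.59% lowered. The list's median was 0.17, against -0.03 over all genes. *Lipa*, the lysosomal acid lipase, rose by 0.81 ± 0.07 (adjusted p = 2.3e-09) with IL-1β, and *Abca1*, which exports cholesterol, by 0.59 ± 0.07 (adjusted p = 3.6e-07). *Soat1*, which esterifies cholesterol, rose by 0.45 ± 0.05 (adjusted p = 5.8e-08), and *Mylip*, a ubiquitin ligase that acts on lipoprotein receptors, by 0.45 ± 0.08 (adjusted p = 6.2e-05). In this list butyrate alone raised *Soat1* only (0.36 ± 0.05, adjusted p = 3.1e-06), and added to IL-1β lowered *Lipa* only (-0.54 ± 0.07, adjusted p = 2.5e-06). Over all genes 8.53% were raised and 11.1% lowered in these comparisons, so that 1 of 10 is near each share. Under upper-quartile scaling butyrate alone raised 4 of the 10, where 2207 of all 18587 genes were raised. With library size alone as the scaling, IL-1β raised 5 and lowered 0 of the 10, where 2798 of all genes were raised and 708 lowered.

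Among 10 other sterol and isoprenoid genes, IL-1β raised *Aacs*, which makes acetoacetyl-CoA (0.54 ± 0.08, adjusted p = 4.5e-05), and lowered *Dhdds*, of dolichol synthesis (-0.29 ± 0.05, adjusted p = 1.7e-05), *Lbr*, a sterol reductase of the nuclear envelope (-0.26 ± 0.05, adjusted p = 0.00028), and *Mmab*, the divergent neighbour of *Mvk* (-0.24 ± 0.07, adjusted p = 0.0072). Butyrate alone raised *Tmem97*, a regulator of cholesterol transport (0.54 ± 0.07, adjusted p = 6.2e-07), and lowered *Erg28*, a scaffold of sterol enzymes (-0.45 ± 0.06, adjusted p = 2.6e-06), and *Lbr* (-0.21 ± 0.05, adjusted p = 0.0032). Added to IL-1β, it raised *Tmem97* (0.65 ± 0.06, adjusted p = 1.9e-08) and lowered *Aacs* (-0.49 ± 0.08, adjusted p = 0.00013) and *Erg28* (-0.35 ± 0.06, adjusted p = 8.0e-05). Of all genes, 11.2% were raised and 6.59% lowered by IL-1β, and 8.53% and 11.4% by butyrate alone. Butyrate added to IL-1β raised 8.41% and lowered 11.1%, so that several counts of this list are near those shares. The split for IL-1β was 2 raised and 2 lowered with library size alone (2798 and 708 of all 18587 genes). That for butyrate alone was 2 raised and 1 lowered with upper-quartile scaling (2207 and 1566 of all genes). With library size alone it was 1 raised and 4 lowered (1343 and 2488 of all genes). *Tmem97* had 14.2 ± 1.22 CPM in control islets, 16.5 ± 0.524 with IL-1β, 20.7 ± 1.61 with butyrate and 25.8 ± 0.607 with both (SD, n = 4).

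Of 26 tested genes of fatty acid and glycerolipid metabolism, IL-1β raised 6 and lowered 2, butyrate alone raised 3 and lowered 5, and butyrate added to IL-1β raised 4 and lowered 5. Of all genes, 11.2% were raised and 6.59% lowered by IL-1β, 8.53% and 11.4% by butyrate alone, and 8.41% and 11.1% by butyrate added to IL-1β, so that several of these counts are near those shares. With upper-quartile scaling the counts were 5 and 3, 5 and 3, and 5 and 3, and with library size alone 8 and 2, 3 and 4, and 4 and 3. Over all 18587 genes they were 1914 and 1800, 2207 and 1566, and 2137 and 1566 with upper-quartile scaling. With library size alone they were 2798 and 708, 1343 and 2488, and 1580 and 1946. IL-1β raised *Dgat2*, which completes triglycerides (1.14 ± 0.14, adjusted p = 3.9e-07), *Acsl5*, an acyl-CoA synthetase (0.66 ± 0.05, adjusted p = 5.6e-11), *Pnpla3*, a lipid droplet hydrolase (0.50 ± 0.10, adjusted p = 0.00047), and *Mid1ip1*, a partner of acetyl-CoA carboxylase (0.39 ± 0.07, adjusted p = 0.00024). *Acacb*, the mitochondrial acetyl-CoA carboxylase, had the largest butyrate response of the lists. It had 1.49, 1.46, 1.53 and 1.75 CPM in control islets, 0.827, 1.61, 1.35 and 1.52 with IL-1β, 5.68, 5.06, 5.38 and 5.38 with butyrate and 6.50, 5.22, 5.74 and 5.06 with both, so that libraries with and without butyrate did not overlap. As log2 fold changes the tests gave 1.78 ± 0.15 (adjusted p = 7.7e-10) for butyrate alone and 2.07 ± 0.15 (adjusted p = 9.5e-11) for butyrate added to IL-1β, while its cytosolic counterpart *Acaca* was at -0.01 ± 0.06 (adjusted p = 0.95) and 0.00 ± 0.06 (adjusted p = 0.97).

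Butyrate lowered *Acsl5* both alone (-0.51 ± 0.05, adjusted p = 3.5e-08) and with IL-1β (-0.54 ± 0.05, adjusted p = 5.6e-09), and raised *Acsl3*, another acyl-CoA synthetase, by 0.37 ± 0.07 (adjusted p = 9.2e-05) alone and by 0.46 ± 0.07 (adjusted p = 6.3e-06) with IL-1β. *Acss2*, which makes acetyl-CoA from acetate, rose with butyrate alone by 0.36 ± 0.06 (adjusted p = 1.4e-05). *Thrsp*, a partner of lipid synthesis enzymes with few counts, rose with butyrate added to IL-1β by 1.09 ± 0.26 (adjusted p = 0.0019).

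**Figure D5:**
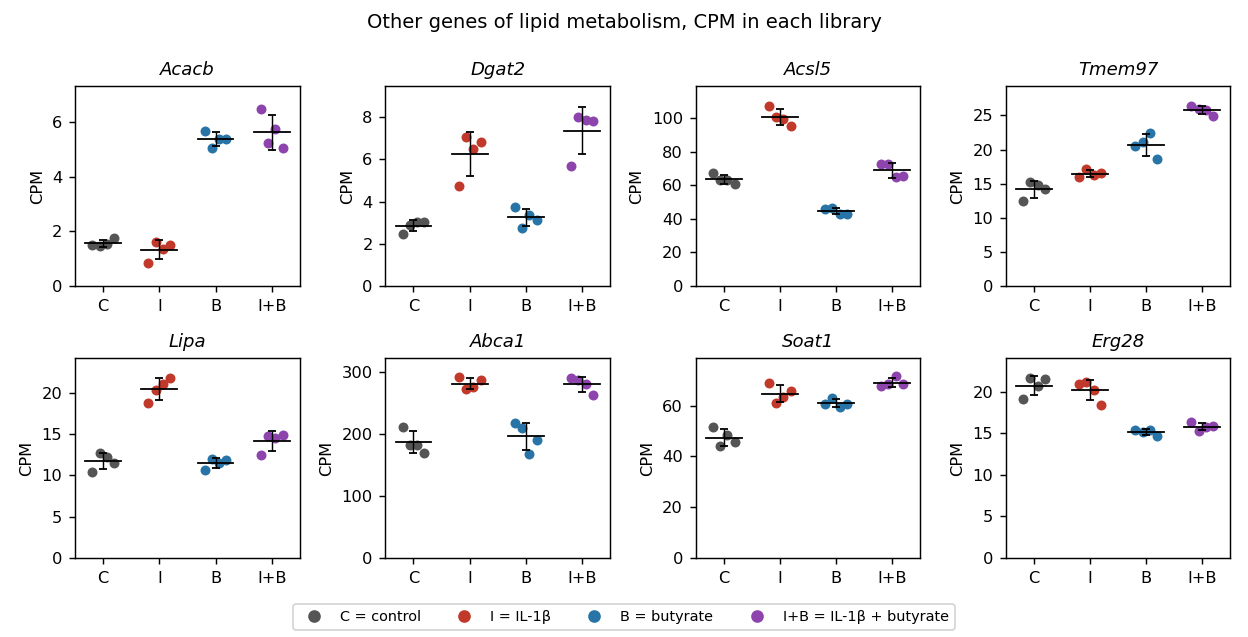
CPM in each library of 8 genes of lipid metabolism outside the set (points, left to right as replicates 1 to 4), with mean and SD (bars), for control (C), IL-1β (I), butyrate (B) and both (I+B). *Acacb* is higher in all libraries with butyrate, *Lipa* is highest with IL-1β alone, and *Abca1* is higher in all libraries with IL-1β.

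Cell type markers also differed between the conditions. Summed over 9 markers, beta cell genes had 214585 to 237394 CPM in control islets, 137903 to 179595 with IL-1β, 222989 to 262488 with butyrate and 138251 to 170465 with both, and IL-1β lowered 7 and raised 1 of the 9. Macrophage markers, 7 genes, had 127 to 140.3 CPM in control islets, 169.8 to 206 with IL-1β, 84.2 to 105 with butyrate and 93.8 to 123 with both, and IL-1β raised 6 and lowered 1. In control islets most of this sum was *C1qa*, whose mean there was 111 CPM, against 79.7 when IL-1β was given and 51.2 under both agents. The other 6 markers were higher with IL-1β, and the median log2 fold change of the 7 was 2.189 with IL-1β and 1.25 with both agents against control, where 4 were raised and 1 lowered. Duct markers, 5 genes, had 340.4 to 367 CPM in control islets, 499 to 597 with IL-1β, 327 to 366 with butyrate and 514 to 812 with both, and of 4 tested IL-1β raised 2 and both agents against control raised 1. The sum followed *Spp1*, which is not particular to duct cells and had a mean of 11.9 CPM in control islets, against 158 when IL-1β was given and 348 under both agents. *Krt7*, which made up most of the sum in control islets, was at 335.9, 394 and 338.5 in the same conditions. *Krt19*, *Sox9* and *Cftr* had means of 1.43, 2.04 and 0.0763 CPM in control islets. Delta cell markers, 3 genes, had 1689 to 1989 CPM in control islets, 1739 to 2216 with IL-1β, 2389 to 2769 with butyrate and 2622 to 3184 with both, most of it *Sst*, and butyrate raised 1 of the 3. Alpha cell markers, 5 genes, had 21074 to 24229 CPM in control islets, 20242 to 25763 with IL-1β, 18678 to 22097 with butyrate and 24872 to 27883 with both. Most of this was *Gcg*, with a mean of 21528 in control islets and 25351 with both. Each agent alone lowered 2 of the 5, and both agents against control lowered 3. Acinar markers, 7 genes, summed to 18.8 to 30.1 CPM in untreated libraries and to 18.9 to 27.1 under IL-1β. The sums were 13.6 to 19.8 under butyrate and 8.72 to 16.2 under both agents. Most of the untreated sum was *Cela1*, whose mean of 22.0 was lower under IL-1β (14.5), butyrate (15.1) and both agents (8.06). *Ctrb1* went the other way, from a mean of 0.589 untreated to 5.66 under IL-1β and 1.48 under both agents. Of 4 acinar markers tested, IL-1β raised 1 and both agents against control lowered 1. Endothelial, fibroblast and Schwann cell markers each summed to at most 19.7 CPM in any library. Adipocyte markers, 7 genes, summed to at most 3.56 CPM in any library. Bulk RNA cannot tell fewer cells of a type from less RNA per cell, and the part of these shifts in the differences of the sterol and fatty acid genes was not tested.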

How the data were processed

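Single-end reads of 16 libraries (NEBNext Ultra II kit) were mapped by the authors to GRCm38 with STAR 2.5.3a, and the deposited values are counts per gene, whole numbers without normalization. The submitters' processing notes also name bcl2fastq 2.19.1, FastQC 0.11.7 and MultiQC 1.7. The annotation release, the strand setting and filters on reads are not given in the sources used here. Symbols, positions and exon lengths came from GENCODE M21 (52489 of 52636 identifiers). The reads carried no molecular identifiers.

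In R 4.3.3, edgeR 4.0.16 filtered low counts (filterByExpr by condition), scaled by TMM and fitted 1 robust quasi-likelihood model to the 4 conditions. Calls were made at an adjusted p (Benjamini-Hochberg, over all genes tested) under 0.01. On simulated data for butyrate against control (17740 genes), 72.4% of 98 changes of 2-fold were found. No gene of the set was called at that size, so this share does not describe the smaller changes reported here. The simulation also changed far fewer genes than were called in the data. Alternatives were other scalings, no filter, DESeq2, the libraries compared only, a threshold of 0.05, a replicate block and leaving out each library. The members, the other lists and the marker lists of 10 cell types were chosen with earlier results of these data known. All 33 members may be named. Values by library are given for members called in any comparison and for *Srebf1*, *Srebf2*, *Insig1* and *Insig2*. From each other list, up to 4 called genes with the largest change per comparison are named, and none for the comparison of both agents with control. 1 result from these lists is not reported here.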

Additional observations from a re-analysis of the deposited data

Results flagged for a closer look

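A library stood apart from the other 3 of its condition, by Dixon's criterion at the 95% level, in 7 of 132 groups of 4 (33 genes in 4 conditions), and chance gives about 1 in 20. *Mvd* had 12.3 CPM in combined replicate 1, where the others had 10.8 to 10.9. *Ebp* had 18.01 CPM in combined replicate 4 (others 21.4 to 21.5) and 19.3 in butyrate replicate 4 (others 20.3 to 20.5), both on the side away from the libraries without butyrate. *Sc5d* had 61.3 CPM in butyrate replicate 1 (others 54.0 to 54.8), and *Dhcr7* had 33.8 in IL-1β replicate 2 (others 31.6 to 31.9). *Fasn* had 164 CPM in butyrate replicate 3 (others 181 to 184), and *Scd2* had 203 in butyrate replicate 4 (others 211 to 213). The calls of *Ebp*, *Fasn* and *Dhcr7* for butyrate against control were kept without each of these libraries.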

How the results depend on the processing

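Of the 43 calls of single genes, 35 were kept in every alternative run and 8 were lost in some (*Msmo1*, *Mvk* and *Srebf2* for butyrate added to IL-1β, *Fasn* and *Tm7sf2* for both agents against control, *Acly*, *Idi1* and *Srebf2* for butyrate alone), and none changed direction. For IL-1β, the 4 lowered genes became 8 at a threshold of 0.05 and 7 with upper-quartile scaling. Over all 18587 genes the 1224 lowered became 2128 and 1800. With both agents against control, the 2 raised genes became 5 at 0.05, 5 with library size alone and 4 without a filter. Over all genes the 2937 raised became 3766, 3805 and 3068, the last of 42076 tested. Without a filter, 2 genes of the set (*Insig1* and *Scd2*) were called for the difference of the butyrate effects. All 42076 genes then gave 52 calls with a positive and 43 with a negative difference.

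Leaving out each library gave, for genes raised and lowered, 2 to 2 and 4 to 6 for IL-1β, 2 to 3 and 8 to 10 for butyrate, 2 to 5 and 6 to 8 for butyrate added to IL-1β, 2 to 3 and 10 to 14 for both agents against control, and 0 to 0 for the difference. The raised genes for butyrate added to IL-1β were 2 without IL-1β replicate 2, the cause of which was not tested.

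Libraries with the same number in different conditions deviated together, with a correlation of 0.0535 to 0.397 over 24 pairs, above 0.1 in 17. The own number was the best match in 21 of 24. This is a hint from the data, beside the order of the library names, and a pairing by number is not stated. With the replicate number as a block, IL-1β raised 2 and lowered 10 genes of the set, and butyrate raised 4 and lowered 12. Butyrate added to IL-1β raised 4 and lowered 9, and both agents against control raised 5 and lowered 16. Over all 18587 genes, the block gave 2586 raised and 1951 lowered for IL-1β and 2105 and 2774 for butyrate. It gave 2126 and 2857 for butyrate added to IL-1β, and 3501 and 3398 for both agents against control. For the difference of the butyrate effects, 2 were called under the block, *Insig1* (0.31, adjusted p = 0.0010) and *Scd2* (0.31, adjusted p = 0.0024). The lowest counts in the set were those of *Idi1* (84 to 199 a library), where the SE was largest among called genes.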
